A study of Mus musculus with 12 samples.

Results

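Expression of 10 transcription factors of the trophectoderm, the outer epithelium of the blastocyst, was followed across 3 groups of mouse blastocysts. The factors were Cdx2, Eomes, Gata2, Gata3, Tfap2a, Tfap2c, Elf5, Klf5, Hand1 and Dlx3. Every probe set annotated to exactly 1 of these genes was taken, which gave 22 probe sets of the 45037 on the array and 10 of the 18193 genes with a probe set of their own. A probe set is a group of short probes read together as 1 signal, and 9 of the 10 genes had more than 1 probe set.

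Whole blastocysts were profiled on 12 Affymetrix arrays, in a study whose title concerns the pattern of Ca2+ oscillations in fertilised mouse eggs. The control group held 4 arrays of normal blastocysts, a second group held 4 arrays of blastocysts treated by 20 pulses, and the third held 4 arrays of blastocysts that had been cultured with Ca-free medium. The nature of the pulses, the time spent in Ca-free medium, the mouse strain, the age of the embryos and the number of embryos behind an array are not stated in the labels or files used. It is likewise not stated that replicates came from different embryo collections; p-values therefore reflect the scatter of these arrays alone, which may be technical.

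The trophectoderm forms when outer cells of the morula become polarised, which keeps the Hippo pathway off and lets the coactivators Yap1 and Wwtr1 work with Tead4. Tead4 then drives Cdx2 and Gata3, and Eomes, Tfap2c and Elf5 belong to the circuit that keeps trophoblast stem cells dividing. Hand1, Gata2 and Dlx3 are better known from the later differentiation of trophoblast in the placenta.

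In blastocysts from Ca-free medium Eomes and Gata2 were lower than in controls, with every Ca-free array below every control array at 1 Eomes and both Gata2 probe sets. For the probe set with the smallest adjusted p of each gene, the log2 change was -0.70 ± 0.11 (SE) for Eomes and -0.78 ± 0.12 for Gata2 (limma, adjusted p = 0.000545 and 0.000455). Dlx3, a dim gene described further on, was also lower. Cdx2 went the other way at its brightest probe set, with a log2 change of 0.28 ± 0.09 (adjusted p = 0.0199), although the 4 control arrays and the 4 Ca-free arrays overlapped. Gata3, the relative of Gata2 that acts beside Cdx2, did not pass the test (0.18 ± 0.11, adjusted p = 0.193).

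Of the 22 probe sets, 21 were tested, those whose signal averaged 100 or more. The threshold was an adjusted p under 0.05, and a probe set past it is called here. Between Ca-free medium and control 9 of the 21 were called, 8 lower from 6 genes and 1 higher. Over all 27808 probe sets tested the same comparison called 40.3%, with 29.7% lower and 10.6% higher. Groups did not overlap for 5 of the 21, all lower in Ca-free medium, against 27% of all tested that were lower without overlap and 9.23% that were higher without overlap. Both Dlx3 probe sets averaged under 100 in Ca-free medium and passed the filter on mean signal through the other groups. Without them 7 of 19 were called, 6 lower and 1 higher. Both also stood among the 5 without overlap, so that count cannot be set against the 27%. Of the 19 without Dlx3, only 1 Eomes and both Gata2 probe sets had groups that did not overlap. The median log2 change of the 21 was -0.14, and that of all probe sets tested was -0.18. The number of called factors was thus close to the share of the whole array, and what follows concerns the individual genes.

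**Figure D1:**
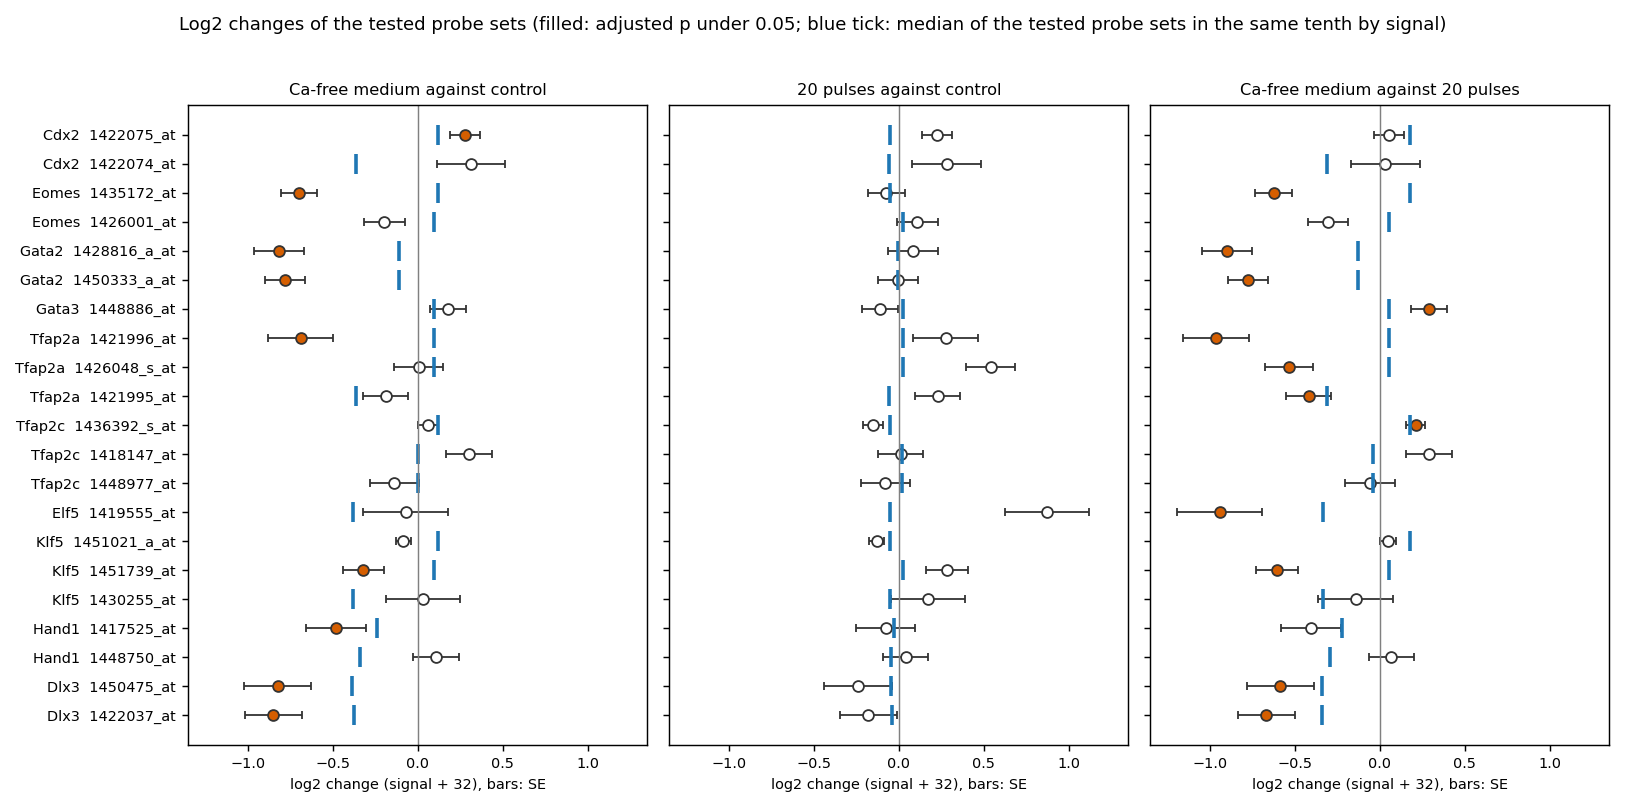
Log2 change of each tested probe set in the 3 comparisons on the horizontal axis, with its standard error as a bar. Filled circles have an adjusted p under 0.05, and blue ticks give the median change of tested probe sets of similar brightness (10 classes of equal size by signal). In the Ca-free comparisons Eomes, Gata2 and Dlx3 lie left of 0, while the 20 pulses comparison has 0 filled circles.

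The start regions of Eomes and Gata2 are shown so that they can be set beside those of Cdx2 and Gata3. They are the 250 bases before a RefSeq start site (GRCm38.p6), 5′ to 3′ on the strand of the gene. A promoter entry was matched for 6 of the 10 genes, namely Cdx2, Eomes, Gata2, Gata3, Tfap2a and Elf5. The windows of Tfap2a, called lower at probe set 1421996_at, and of Elf5 are not printed. Capitals mark matches, on either strand, to the GC box GGGCGG, the TATA box TATAAA, the CCAAT box CCAAT, the AP-2 motif GCCNNNGGC, the GATA motif AGATAA, the TEAD motif GGAATG and the CDX motif TTTATG.
Eomes, chr9:118477939-118478188, plus strand: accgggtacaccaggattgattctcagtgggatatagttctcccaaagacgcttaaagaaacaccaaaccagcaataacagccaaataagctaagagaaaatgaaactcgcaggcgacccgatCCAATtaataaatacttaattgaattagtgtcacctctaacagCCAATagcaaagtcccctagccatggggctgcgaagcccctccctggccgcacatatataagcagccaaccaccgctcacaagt
Gata2, upstream start, chr6:88193641-88193890, plus strand: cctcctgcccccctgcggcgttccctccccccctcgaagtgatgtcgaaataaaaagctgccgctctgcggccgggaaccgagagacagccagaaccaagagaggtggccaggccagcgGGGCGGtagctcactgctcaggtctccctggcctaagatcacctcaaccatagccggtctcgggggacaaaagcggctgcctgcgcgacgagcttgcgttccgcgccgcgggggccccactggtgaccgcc
Gata2, downstream start, chr6:88198414-88198663, plus strand: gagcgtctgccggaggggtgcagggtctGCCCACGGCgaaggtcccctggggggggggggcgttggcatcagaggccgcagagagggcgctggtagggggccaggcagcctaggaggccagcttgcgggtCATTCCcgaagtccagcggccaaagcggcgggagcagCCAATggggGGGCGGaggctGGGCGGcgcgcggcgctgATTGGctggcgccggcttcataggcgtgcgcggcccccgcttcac
Cdx2, chr5:147307250-147307499, minus strand: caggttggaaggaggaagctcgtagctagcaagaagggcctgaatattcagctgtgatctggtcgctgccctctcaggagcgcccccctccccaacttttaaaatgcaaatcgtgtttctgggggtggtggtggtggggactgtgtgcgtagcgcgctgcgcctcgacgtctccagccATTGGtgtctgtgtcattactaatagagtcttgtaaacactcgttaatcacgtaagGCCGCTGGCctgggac
Gata3, chr2:9878601-9878850, minus strand: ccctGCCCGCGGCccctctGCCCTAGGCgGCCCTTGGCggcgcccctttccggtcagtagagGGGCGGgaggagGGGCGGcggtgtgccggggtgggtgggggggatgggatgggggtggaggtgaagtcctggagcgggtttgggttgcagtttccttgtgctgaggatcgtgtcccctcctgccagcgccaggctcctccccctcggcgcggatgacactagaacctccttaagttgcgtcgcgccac

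The Eomes window held 2 CCAAT boxes, 8 CpG dinucleotides and 46.4% G or C. Both Gata2 windows were richer, with 67.2% G or C and 1 GC box at the upstream start, and 74.0% G or C with 2 GC boxes, 2 CCAAT boxes, 1 AP-2 motif and 1 TEAD motif at the downstream start. Cdx2 had 55.2% G or C, 1 CCAAT box and 1 AP-2 motif. Gata3 had 70.0% G or C, 3 AP-2 motifs and 2 GC boxes. Tfap2a had 47.6% G or C, 1 GC box and 1 CDX motif at its upstream start. At its downstream start it had 60.4% G or C and 1 GC box. Of all 32851 windows of this length, 33.8% held the CCAAT box, 32.7% the GC box and 13.7% the AP-2 motif. The TEAD motif stood in 12.6%, the TATA box in 12.4%, the CDX motif in 10.8% and the GATA motif in 10%, and the median window had 52.4% G or C and 6 CpG. These matches describe letters only, and no binding was measured.

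The arrays themselves differed in ways that touch all members. The 3′ over 5′ signal ratio of Actb, a measure of RNA integrity, was 1.59 and 1.67 on controls 1 and 2 but 2.69 and 2.64 on controls 3 and 4, against 1.49 to 1.69 on the 20 pulses arrays and 1.69 to 1.88 on the Ca-free arrays. The same ratio of Gapdh was 5.76 to 8.9 on controls, 5.7 to 7.58 after 20 pulses and 2.89 to 5.05 in Ca-free medium, and the 5′ signal of 18S rRNA was 878 to 2559, 2653 to 3688 and 4003 to 5780. Both separated all Ca-free arrays from all controls. Controls 1 and 2 lay apart from controls 3 and 4 for 14 of the 21 tested members and 49.6% of all tested probe sets, and Ca-free arrays 1 and 4 lay apart from arrays 2 and 3 for 11 of the 21 and 50.9% of all. The part of RNA integrity in the results was not tested.

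The median signal of all probe sets was 165 to 177 on control arrays and 128 to 131 on Ca-free arrays, so the choice of scaling mattered. With each array scaled to its trimmed mean, 26.3% of all calls between Ca-free medium and control were higher. The share was 49.5% after quantile normalization, 87% after scaling to the median and 5.35% after scaling to the spiked hybridization controls, while the median over all probe sets was -0.18, -0.021, 0.19 and -0.36. The members followed: 1 was called higher and 8 lower with the trimmed mean, 1 and 6 with quantile normalization, 8 and 4 with the median, and 0 and 11 with the hybridization controls. The 8 called higher with the median were both Cdx2 probe sets, Gata3, Tfap2a 1426048_s_at, Tfap2c 1436392_s_at and 1418147_at, Klf5 1451021_a_at and Hand1 1448750_at. Of the 19 tested probe sets without Dlx3, Eomes 1435172_at and both Gata2 probe sets were called lower under all 4 scalings. Both Gata2 probe sets read the same gene on the same arrays. Over all probe sets tested the share was 4.5%, which still counts probe sets like those of Dlx3 and so cannot be compared directly. Dlx3 1422037_at was also called lower under all 4, but it passed the filter through the other groups and is not counted.

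**Figure D2:**
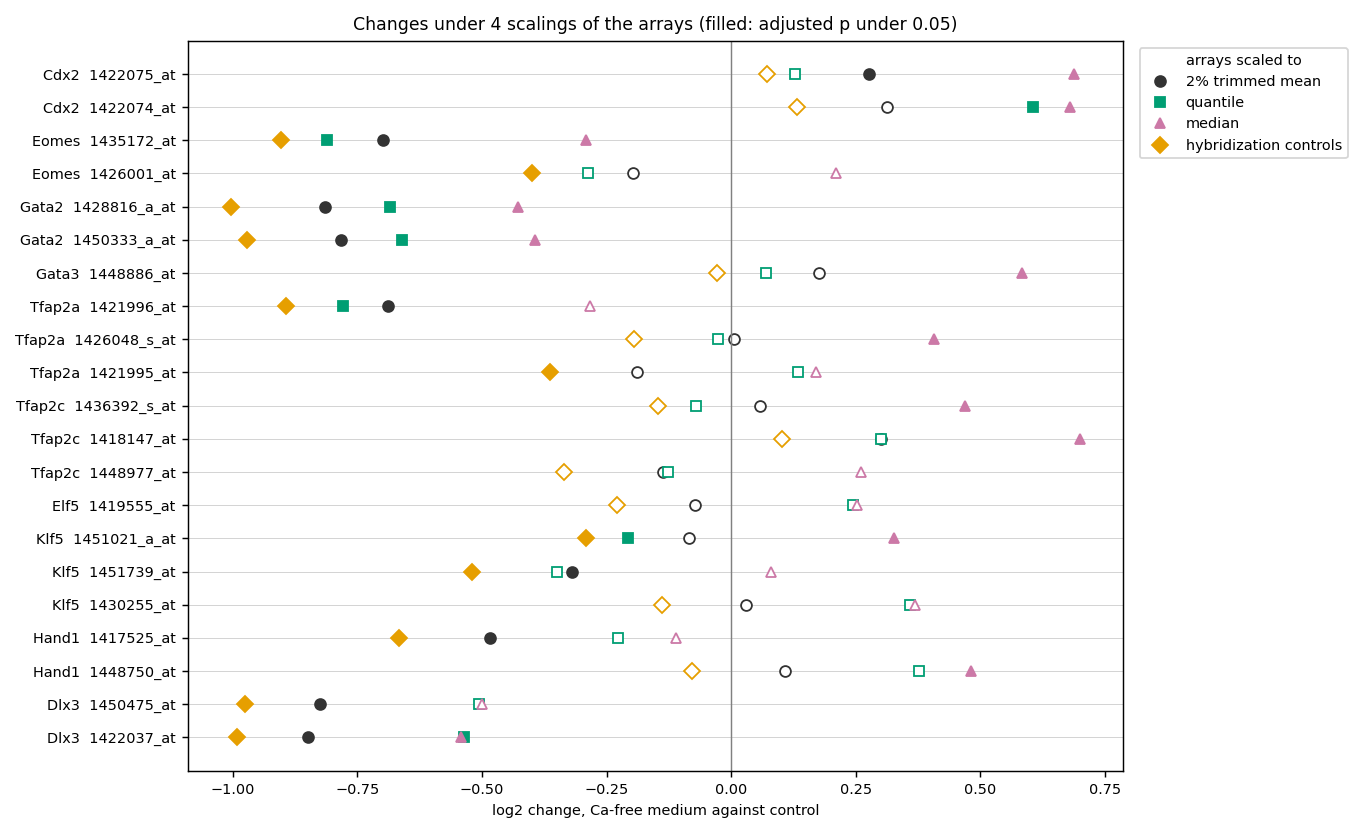
Log2 change between Ca-free medium and control for each tested probe set under 4 scalings of the arrays, with filled symbols for an adjusted p under 0.05. Eomes 1435172_at, both Gata2 probe sets and Dlx3 1422037_at are filled left of 0 in all 4, and Cdx2 1422075_at lies right of 0 in all 4 but is filled in only 2.

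Cdx2 is the caudal-type homeobox factor that outer cells need to hold the trophectoderm fate and to keep inner cell mass genes off. Its brightest probe set, 1422075_at, had signals of 4618, 4609, 3721 and 3545 on controls 1 to 4, with a mean of 4123 ± 571 (SD, n = 4). In Ca-free medium the signals were 4528, 5579, 4904 and 4915 (4981 ± 437, n = 4). After 20 pulses they were 4823, 4845, 4811 and 4670 (4787 ± 79.4, n = 4). All 4 arrays of the 20 pulses group stood above all controls, and in the Ca-free group array 1 lay among the controls.

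Controls 3 and 4 were the 2 lowest arrays for Cdx2. The call between Ca-free medium and control was lost without control 3 (log2 change 0.23, adjusted p = 0.0606), without control 4 (0.21, 0.0623) or without Ca-free array 2 (0.22, 0.0629). It was also lost with only controls 1 and 2 (0.11, adjusted p = 0.287), with only Ca-free arrays 1 and 4 (0.20, 0.127), after quantile normalization (0.13, 0.315) and with the hybridization controls (0.072, 0.526). The change was positive in each of these. The second probe set, 1422074_at, was dimmer, at 283, 276, 165 and 118 on the controls and 253, 293, 278 and 205 in Ca-free medium, and was not called (0.31 ± 0.20, adjusted p = 0.222). Calls came from quantile normalization (0.60, adjusted p = 0.0395), from median scaling (0.68, 0.00871) and from controls 3 and 4 alone (0.74, 0.0105), and with only controls 1 and 2 its sign turned (-0.12). Its 20 pulses signals were 244, 248, 274 and 232, and as with the brighter probe set controls 3 and 4 were the lowest of the 12 arrays.

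Eomes is the T-box factor that the trophoblast lineage needs after Cdx2 has been switched on. For probe set 1435172_at the control signals were 4143, 3511, 3499 and 3749 (3725 ± 301, n = 4). The Ca-free signals were 2492, 2043, 2225 and 2375 (2284 ± 194, n = 4). Every Ca-free array lay below the lowest control, and the gap between the groups was larger than the spread within either of them.

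The 20 pulses arrays read 4035, 2987, 4218 and 3047 for this probe set (3572 ± 646, n = 4), with arrays 2 and 4 below all controls and array 3 above them. Their log2 change from control was -0.074 ± 0.11 (adjusted p = 0.788). The fall in Ca-free medium ran against the probe sets of similar brightness, whose median change was 0.12. It was called under all 4 scalings, with log2 changes from -0.90 to -0.29.

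The other Eomes probe set, 1426001_at, did not share this separation. Its signals were 2614, 2036, 1741 and 2072 on the controls (2116 ± 364, n = 4) and 2096, 1539, 1625 and 2104 in Ca-free medium (1841 ± 301, n = 4). The groups overlapped and the change of -0.20 ± 0.12 was not called (adjusted p = 0.194). Under median scaling its sign turned (0.21), and it was called with the hybridization controls (-0.40, adjusted p = 0.0149) and with only Ca-free arrays 2 and 3 (-0.40, 0.0264). Arrays 1 and 4 of the Ca-free group were at control level for this probe set, and arrays 2 and 3 were the lowest of the 12. The fall of Eomes thus rests on 1 of its 2 probe sets.

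Gata2 and Gata3 are zinc finger factors that bind the same core sequence and act in trophoblast, where Gata3 helps to switch on the trophectoderm programme and Gata2 promotes placental genes. Gata2 probe set 1428816_a_at had 742, 884, 546 and 637 on the controls (702 ± 145, n = 4) and 497, 321, 323 and 401 in Ca-free medium (386 ± 83, n = 4). Probe set 1450333_a_at had 693, 839, 657 and 623 on the controls (703 ± 95.1, n = 4) and 367, 324, 468 and 427 in Ca-free medium (397 ± 64, n = 4). For both, the highest Ca-free array was below the lowest control.

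The log2 changes of Gata2 were -0.81 ± 0.15 and -0.78 ± 0.12 (adjusted p = 0.00118 and 0.000455), where probe sets of similar brightness had a median of -0.11. Both stayed called under all 4 scalings, with changes from -1.0 to -0.43 for the first and from -0.97 to -0.39 for the second. The 20 pulses signals were 741, 799, 682 and 723 for the first probe set and 716, 710, 641 and 719 for the second, all within the range of the controls. Gata2 was the only member gene with every one of several probe sets called in both comparisons that involve Ca-free medium and under all 4 scalings.

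Gata3 had 1 probe set, 1448886_at. Its signals were 1896, 2067, 2356 and 2313 on the controls (2158 ± 216, n = 4), 2208, 1619, 2185 and 1987 after 20 pulses (2000 ± 273, n = 4) and 2212, 2578, 2732 and 2245 in Ca-free medium (2442 ± 255, n = 4). The Ca-free and control arrays overlapped, and the change of 0.18 turned to -0.029 with the hybridization controls and was called under median scaling (0.58, adjusted p = 0.000712).

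Tfap2a and Tfap2c encode AP-2 factors, of which Tfap2c is needed for trophoblast growth and takes part in switching on Cdx2. Tfap2a probe set 1421996_at had 3202, 2760, 2797 and 3016 on the controls (2944 ± 206, n = 4) and 2820, 1227, 2243 and 1377 in Ca-free medium (1917 ± 750, n = 4). The Ca-free arrays were spread more widely than the controls, and array 1 reached control level. The change of -0.69 ± 0.19 was called (adjusted p = 0.012), but not under median scaling (-0.28, adjusted p = 0.259) or with only controls 3 and 4 (-0.67, 0.0672).

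The 3 probe sets of Tfap2a gave different changes. For 1426048_s_at the controls were close together at 1123, 1066, 1157 and 1148 (1124 ± 41, n = 4), and Ca-free arrays 1 and 4 stood above them at 1374 and 1485 while arrays 2 and 3 stood below at 864 and 914. Its mean change was 0.0054 ± 0.14 (adjusted p = 0.979), and it was called higher under median scaling (0.41, adjusted p = 0.0415) and with only Ca-free arrays 1 and 4 (0.34, 0.0135), but lower with only arrays 2 and 3 (-0.33, 0.0195). The third, 1421995_at, was dim, with 253, 258, 208 and 179 on the controls and 187, 190, 190 and 199 in Ca-free medium (-0.19 ± 0.13, adjusted p = 0.261). It was called lower with the hybridization controls (-0.36, adjusted p = 0.0329), and its sign turned after quantile normalization (0.13).

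Tfap2c was among the brightest members, and none of its 3 probe sets was called against control. Probe set 1436392_s_at had 5702, 5623, 5382 and 5617 on the controls (5581 ± 138, n = 4) and 5802, 6216, 6072 and 5211 in Ca-free medium (5825 ± 444, n = 4), a change of 0.058 ± 0.057 (adjusted p = 0.429). The other probe sets, 1418147_at and 1448977_at, changed by 0.30 ± 0.13 and -0.14 ± 0.15 (adjusted p = 0.0826 and 0.464). Their signals ran from 645 to 1265 over all control and Ca-free arrays, with overlap between the groups. Median scaling called 1436392_s_at and 1418147_at higher (0.47 and 0.70, adjusted p = 5.46e-05 and 0.000914). Probe set 1418147_at was also called higher without Ca-free array 4 (0.38, adjusted p = 0.0425) and with only Ca-free arrays 2 and 3 (0.50, 0.0212). With only controls 1 and 2, 1448977_at was called lower (-0.40, adjusted p = 0.0365).

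Klf5 is a zinc finger factor that the blastocyst uses in both the trophectoderm and the inner cells. Its brightest probe set, 1451021_a_at, had 6636, 6879, 6615 and 6402 on the controls and 5951, 6501, 6193 and 6374 in Ca-free medium, a change of -0.085 ± 0.046 (adjusted p = 0.151). Its direction turned with the scaling: it was called lower after quantile normalization (-0.21, adjusted p = 0.00291) and with the hybridization controls (-0.29, 0.00135), and higher under median scaling (0.33, adjusted p = 0.000182). Probe set 1451739_at had 1403, 1316, 1039 and 1144 on the controls (1226 ± 164, n = 4) and 1125, 829, 888 and 1061 in Ca-free medium (976 ± 140, n = 4), and its call was marginal (-0.32 ± 0.12, adjusted p = 0.0489). That call was lost when any of controls 1, 2 or 4 or Ca-free arrays 2 or 3 was left out (changes of -0.25, -0.28, -0.35, -0.25 and -0.28), and the sign turned under median scaling (0.081). The dimmest probe set, 1430255_at, ran from 112 to 230 over control and Ca-free arrays with no separation (0.030 ± 0.22, adjusted p = 0.923).

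Elf5 is an ETS factor that marks trophoblast stem cells and feeds back on Cdx2 and Eomes. Probe set 1419555_at was dim, at 96.7, 128, 133 and 140 on the controls (124 ± 19.1, n = 4) and 157, 74.9, 82 and 176 in Ca-free medium (122 ± 51.5, n = 4). Ca-free arrays 1 and 4 were above all controls and arrays 2 and 3 below, and the change was -0.072 ± 0.25 (adjusted p = 0.836). Probe set 1419556_at was not tested, since its mean over the 12 arrays was 76.6. Its highest signal was 130, on control 3, and its lowest 29.8, on array 4 of the 20 pulses group.

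Hand1, a basic helix-loop-helix factor that promotes trophoblast giant cells, had 361, 507, 344 and 288 on the controls (375 ± 93.5, n = 4) and 200, 240, 305 and 282 in Ca-free medium (257 ± 46.4, n = 4) at probe set 1417525_at. The groups overlapped, since Ca-free array 3 was above control 4. The change of -0.48 ± 0.18 was called (adjusted p = 0.0402), and the call was lost without control 1, 2 or 3 (changes of -0.49, -0.34 and -0.51), without Ca-free array 1 or 2 (-0.38 and -0.46), with only controls 3 and 4 (-0.28, 0.297), with median scaling (-0.11, adjusted p = 0.658) and after quantile normalization (-0.23, 0.415). The other probe set, 1448750_at, gave 0.11 ± 0.13 (adjusted p = 0.537), with 224 to 343 on the controls and 291 to 317 in Ca-free medium, and was called higher under median scaling (0.48, adjusted p = 0.014).

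Dlx3 is a homeobox factor of the differentiating placenta, and both of its probe sets were dim. At 1450475_at the controls lay within 189 to 192 (191 ± 1.22, n = 4), and the Ca-free arrays read 117, 57.4, 146 and 74 (98.5 ± 40.2, n = 4). At 1422037_at the controls read 170, 144, 161 and 148 (156 ± 12, n = 4) and the Ca-free arrays 71.7, 103, 54.1 and 65.3 (73.6 ± 21, n = 4). No Ca-free array reached a control at either probe set.

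Both Dlx3 probe sets were called, at -0.82 ± 0.20 and -0.85 ± 0.17 (adjusted p = 0.0054 and 0.00185). Probe sets of similar brightness had median changes of -0.39 and -0.38, in the same direction. Under all 4 scalings 1422037_at was called, with changes from -0.99 to -0.54, while 1450475_at was not called after quantile normalization or under median scaling (-0.51 and -0.50). Detection calls were not used here, and most Ca-free signals of Dlx3 lay under 100, the mean below which probe sets were not tested. A probe set that passes this filter through the groups where it is high has to differ, so the Dlx3 changes are a description and support no count.

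**Figure D3:**
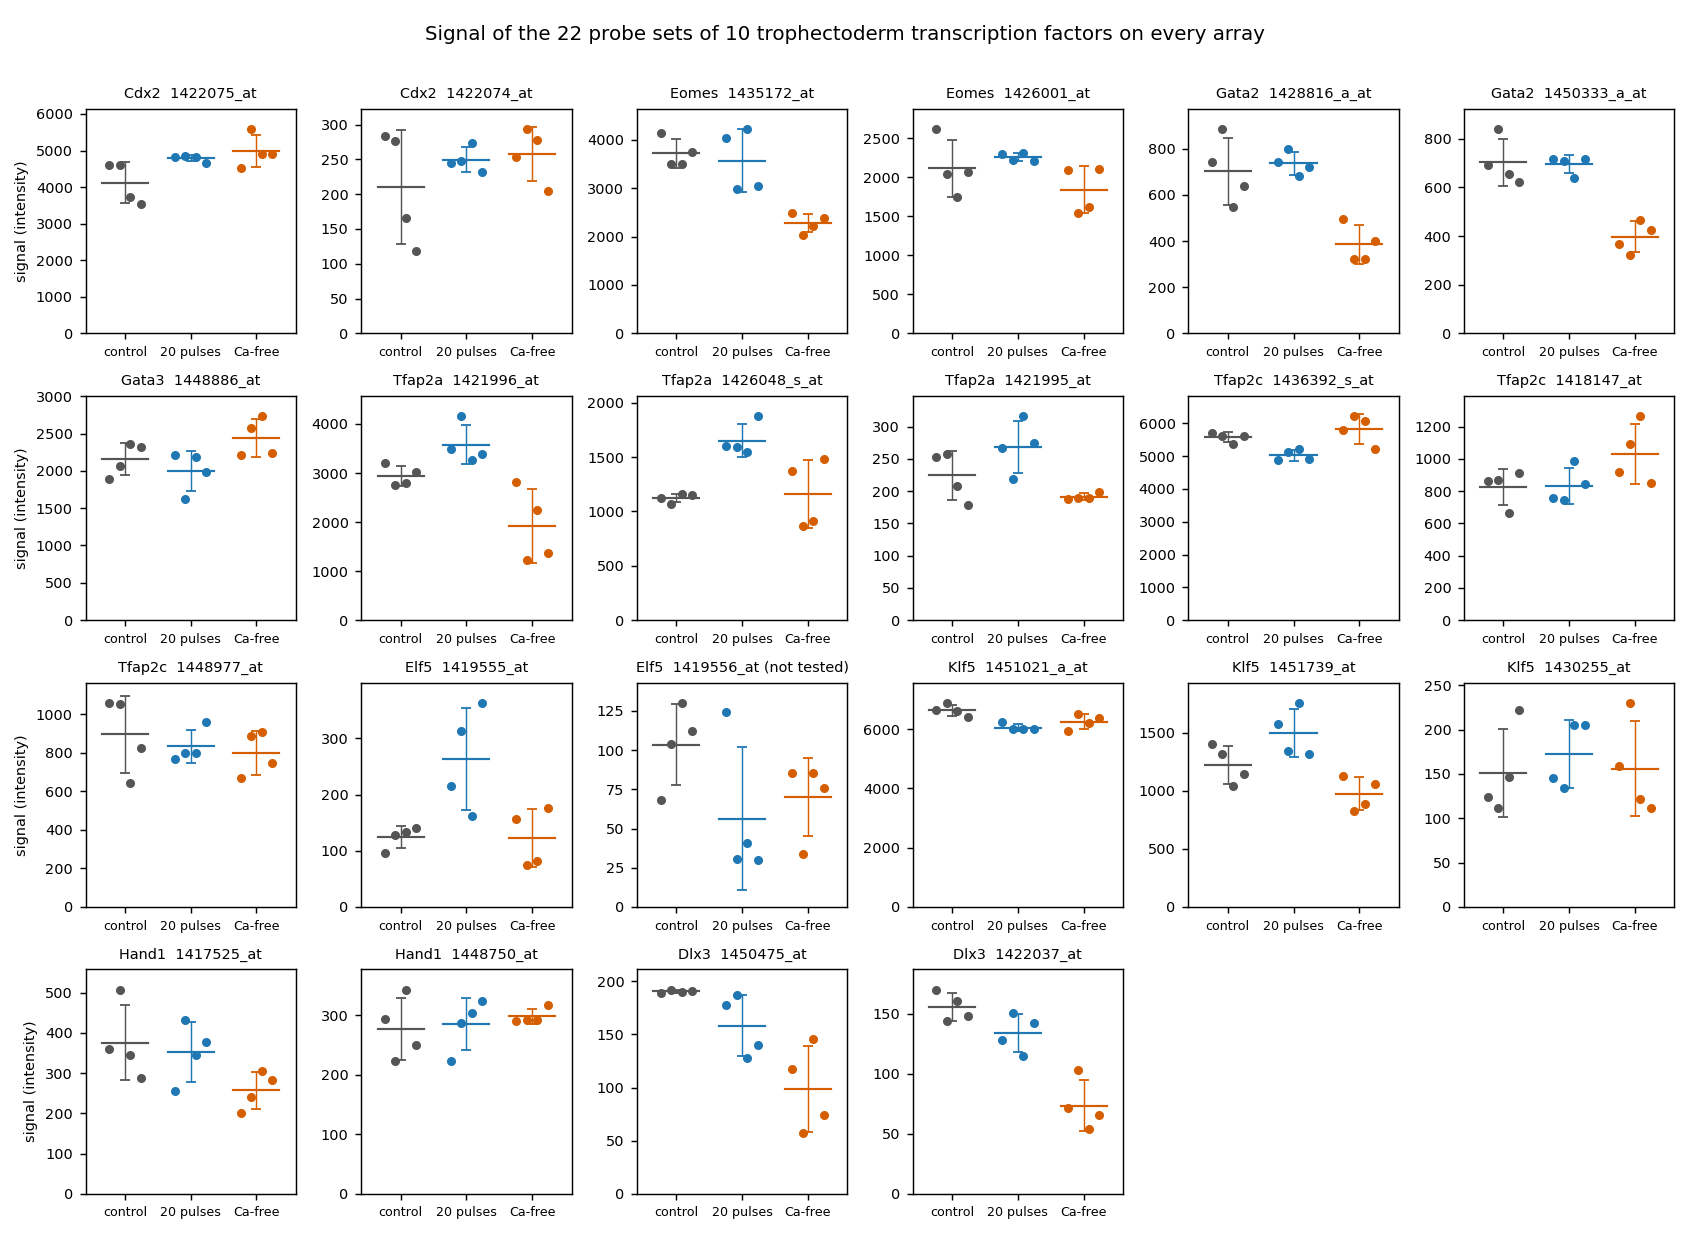
Signal (intensity scaled to a trimmed mean of 500) of the 22 probe sets on each of the 12 arrays, with points in replicate order from left to right, group means as lines and SDs as bars; each panel has its own axis from 0. The Ca-free points of Eomes 1435172_at, both Gata2 and both Dlx3 panels lie below all control points, and the 20 pulses points of Tfap2a 1426048_s_at and Elf5 1419555_at lie above them.

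Differences between a pair of probe sets on the same array do not depend on a factor that scales the whole array, apart from the small value added before taking logs. Shifts that depend on brightness remain in them. In Ca-free medium against control, probe sets as bright as Gata2 had a median change of -0.11, and those as bright as Gata3 0.095. The differences were set to a control mean of 0 and are given as a description. Each gene stands at its brightest probe set, among them Eomes 1435172_at, Cdx2 1422075_at, Gata2 1428816_a_at and Tfap2a 1421996_at. Eomes minus Cdx2 ran from -0.25 to 0.22 on the controls and from -1.30 to -0.72 in Ca-free medium, with a mean of -0.98 ± 0.24 (SD, n = 4). After 20 pulses it ran from -0.55 to -0.050. Gata2 minus Gata3 ran from -0.46 to 0.40 on the controls and from -1.37 to -0.49 in Ca-free medium (-0.99 ± 0.42, n = 4). The groups did not overlap for either pair, although Ca-free array 1 and control 3 lay close together for Gata2 minus Gata3.

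Tfap2a minus Tfap2c ran from -0.10 to 0.091 on the controls, from 0.25 to 0.62 after 20 pulses (0.43 ± 0.15, n = 4) and from -1.39 to -0.11 in Ca-free medium (-0.75 ± 0.56, n = 4). Here the 20 pulses arrays lay above the controls and the Ca-free arrays below, with Ca-free array 1 just under the lowest control. Tfap2a 1426048_s_at, Tfap2a 1421995_at and Eomes 1426001_at were not used for these differences. Their changes in Ca-free medium against control were 0.0054, -0.19 and -0.20, and none was called. Against Pou5f1, the POU factor of the inner cell mass, Eomes and Gata2 were lower in Ca-free medium (-0.90 ± 0.11 and -1.02 ± 0.21, n = 4 each), with no overlap with the controls. Pou5f1 itself was called higher (0.20 ± 0.070, adjusted p = 0.0329; not after quantile normalization, 0.058, or with the hybridization controls, -0.0043), which adds to these differences. Cdx2 minus Pou5f1 was 0.076 ± 0.20 in Ca-free medium and ran from -0.27 to 0.30 on the controls.

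**Figure D4:**
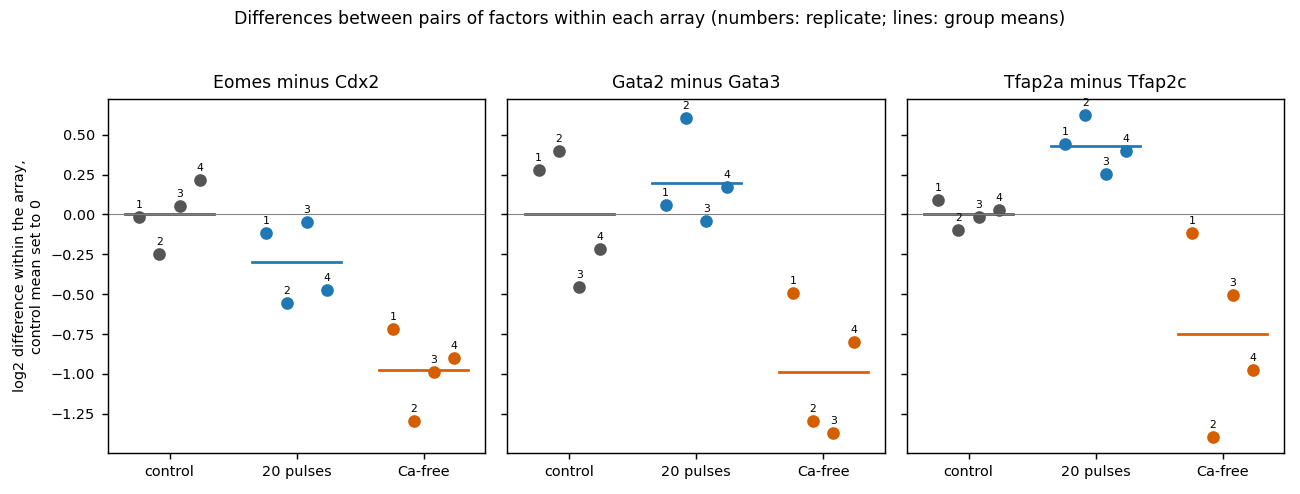
Log2 difference between the brightest tested probe sets of a pair of factors on each array, with the control mean set to 0; numbers are replicates and lines are group means. The Ca-free arrays lie between -1.30 and -0.72 for Eomes minus Cdx2, below all controls, and the 20 pulses arrays lie between 0.25 and 0.62 for Tfap2a minus Tfap2c, above all controls.

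After 20 pulses no member passed the test against control. Of the 21 probe sets 0 were called by limma, and the comparison called 1.48% of all probe sets tested. An unadjusted p under 0.05 was reached by 6 of the 21 and by 15.8% of all. The members' median change was 0.039, against -0.027 for all. The 20 pulses arrays lay above all controls for 4 probe sets and below all controls for 3, against 5.85% and 5.11% of all tested.

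The largest change after 20 pulses was that of Elf5 1419555_at, whose signals of 216, 313, 161 and 363 (263 ± 91.5, n = 4) stood above the controls at 96.7 to 140. The log2 change was 0.87 ± 0.25 with an adjusted p of 0.0973. The second Elf5 probe set did not share it, at 124, 30.7, 40.8 and 29.8 after 20 pulses against 68 to 130 on the controls. Tfap2a 1426048_s_at had 1599, 1590, 1543 and 1876 after 20 pulses (1652 ± 152, n = 4) and 1066 to 1157 on the controls. Its change of 0.54 ± 0.14 missed the threshold (adjusted p = 0.0755).

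Tfap2a 1421996_at went the same way, at 3483, 4159, 3270 and 3397 after 20 pulses, all above the controls (0.27 ± 0.19, adjusted p = 0.527). The third Tfap2a probe set, 1421995_at, overlapped the controls at 266, 218, 316 and 274 (0.23 ± 0.13, adjusted p = 0.427). Cdx2 1422075_at changed by 0.22 ± 0.09 (adjusted p = 0.211). With only controls 1 and 2, those with the lower Actb ratio, the second Cdx2 probe set turned from 0.28 to -0.15.

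Below all controls after 20 pulses were Tfap2c 1436392_s_at (4868, 5115, 5212 and 4896), Klf5 1451021_a_at (6223, 5994, 5993 and 6000) and Dlx3 1450475_at (178, 187, 128 and 140). Their changes were -0.15 ± 0.06, -0.13 ± 0.05 and -0.24 ± 0.20 (adjusted p = 0.205, 0.17 and 0.598). The first 2 turned positive with the hybridization controls, at 0.011 and 0.031.

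Other settings called a few members after 20 pulses. Scaling to the hybridization controls, which moved the median of all probe sets to 0.12, called 4, namely Elf5 1419555_at (1.02, adjusted p = 0.0182), Tfap2a 1426048_s_at (0.70, 0.00865), Cdx2 1422075_at (0.39, 0.0185) and Klf5 1451739_at (0.44, 0.0489). Tfap2a 1426048_s_at was also called with array weights (0.53, adjusted p = 0.0443) and when the model held just the 8 arrays of these groups (0.54, 0.0115). With only controls 3 and 4, those with the higher Actb ratio, both Cdx2 probe sets were called (0.71 and 0.40, adjusted p = 0.038 and 0.0139).

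Set directly against the 20 pulses group, the Ca-free group differed for 12 of the 21 probe sets, 10 lower from 6 genes and 2 higher from 2 genes. Over the whole array 32.6% were called, 23.4% lower and 9.22% higher. The split of the members turned with the scaling, to 0 higher and 7 lower after quantile normalization. The hybridization controls gave 0 and 15, and median scaling gave 6 and 3. Over all probe sets 28.3% of the calls were higher, against 50.3%, 0.475% and 89.9% under these 3 scalings in the same order. Without Dlx3 the count was 10 of 19. The members' median change was -0.40 and that of all probe sets was -0.17. This comparison shares its Ca-free arrays with the one against control and its 20 pulses arrays with the other, so it adds no separate support to them.

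Eomes 1435172_at changed by -0.62 ± 0.11 (adjusted p = 0.00171; not called under median scaling, -0.25) and Gata2 by -0.90 ± 0.15 and -0.78 ± 0.12 (adjusted p = 0.00127 and 0.000897). The other Eomes probe set, 1426001_at, was not called (-0.31 ± 0.12, adjusted p = 0.0596), though every Ca-free array lay below every 20 pulses array. It was called with the hybridization controls (-0.67, adjusted p = 0.00037), and its sign turned under median scaling (0.065). All 3 Tfap2a probe sets were called, at -0.96 ± 0.19, -0.53 ± 0.14 and -0.42 ± 0.13 (adjusted p = 0.0033, 0.0126 and 0.0271), each with every Ca-free array below every 20 pulses array. Against control only the first of them had been called. The call of 1426048_s_at was lost under median scaling (-0.17) and with only Ca-free arrays 1 and 4 (-0.20). That of 1421995_at was lost with median scaling (-0.088), after quantile normalization (-0.13) and without 20 pulses array 1 or 3 or Ca-free array 1 or 2 (-0.42, -0.34, -0.41 and -0.41). Under all 4 scalings 3 of the 21 were called lower, against 2.31% of all tested, namely Tfap2a 1421996_at (changes from -1.33 to -0.59) and both Gata2 probe sets (from -1.24 to -0.55 and from -1.12 to -0.42). These 3 probe sets came from 2 genes.

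Elf5 1419555_at (-0.94 ± 0.25, adjusted p = 0.012), Klf5 1451739_at (-0.60 ± 0.12, adjusted p = 0.00352) and both Dlx3 probe sets (-0.58 ± 0.20 and -0.67 ± 0.17, adjusted p = 0.0354 and 0.00932) were also lower in Ca-free medium than after 20 pulses. None of these 4 was called under median scaling (-0.64, -0.24, -0.29 and -0.39), and of them Klf5 alone was called after quantile normalization. The call of Dlx3 1450475_at was also lost without 20 pulses array 1 or 2 or Ca-free array 2 or 4 (-0.53, -0.51, -0.42 and -0.50). For Klf5 1451739_at the 20 pulses signals were 1578, 1346, 1757 and 1319, all above the Ca-free arrays. Higher were Gata3 (0.29 ± 0.11, adjusted p = 0.048) and Tfap2c 1436392_s_at (0.21 ± 0.06, adjusted p = 0.0139). Both turned negative with the hybridization controls (-0.076 and -0.16), and both calls were lost after quantile normalization (0.21 and 0.046). The Gata3 call was also lost with array weights (0.27) and with only the 8 arrays compared (0.29). It was lost as well without 20 pulses array 2 or 4 (0.19 and 0.29) or Ca-free array 2 or 3 (0.26 and 0.23). Neither Cdx2 1422075_at (0.053 ± 0.086, adjusted p = 0.654) nor Hand1 1417525_at (-0.40 ± 0.18, adjusted p = 0.0881) passed.

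Other genes of the trophectoderm were read from lists, each gene at its brightest tested probe set. Of 13599 genes tested, 1667 were higher and 3919 lower in Ca-free medium than in control, with a median change of -0.13. Of 14 upstream regulators of the trophectoderm (Tead, Hippo and Notch genes) 4 were lower and 0 higher, with a median of -0.038. Under median scaling 1 was lower and 7 were higher (median 0.37), and with the hybridization controls 7 were lower and 0 higher (median -0.24). Vgll4, a cofactor that competes for Tead proteins, fell by 0.72 on the log2 scale and was called lower under all 4 scalings (from -0.91 to -0.33). Wwtr1, the coactivator known as TAZ, fell by 0.54 and Tead3 by 0.74, and neither was called under median scaling (-0.13 and -0.36). Tead4 and Yap1 did not pass the test (0.14 ± 0.08 and -0.034 ± 0.070, adjusted p = 0.183 and 0.714).

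Of the 18 tested of 21 structural and signalling genes of the trophectoderm, 1 was higher and 2 were lower (median -0.12). Under median scaling 11 were higher and 0 lower (median 0.29), and with the hybridization controls 0 were higher and 13 lower (median -0.32). Fgfr2, the receptor through which trophoblast stem cells receive Fgf4, fell by 0.46 and Atp12a, an ion pump, by 0.45, while Krt7, a keratin, rose by 0.41. Under median scaling Fgfr2 and Atp12a were not called (-0.064 and -0.057), and with the hybridization controls Krt7 was not (0.22). The keratins Krt8 and Krt18, which define the epithelium, were bright in both groups and changed by 0.0085 ± 0.045 and -0.11 ± 0.05 (adjusted p = 0.894 and 0.0789). Of 6 tested later trophoblast genes Sox21 alone was called, and it fell by 0.46; under median scaling it was not called (-0.057).

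Among 14 tested relatives of the members 1 was higher and 6 were lower (median -0.30, and 0.069 under median scaling). Elf2 rose by 0.46 under the main scaling and was called in all 4, while Dlx4 fell by 0.61 and Gata4 by 0.69, which were not called after quantile normalization (-0.34 and -0.35) or median scaling (-0.23 and -0.34). Gata1, the relative of Gata2 known from red blood cells, fell by 0.83 and was called lower under all 4 scalings (from -1.02 to -0.45). Inner cell mass and epiblast markers had 4 higher and 0 lower of 10 (median 0.075), while median scaling gave 7 higher and the hybridization controls 0 higher and 1 lower. Beside Pou5f1 they were Sall4 (0.28), Prdm14 (0.35) and Zfp42 (0.15), pluripotency genes of the inner cells. With the hybridization controls none of these 3 was called (0.074, 0.15 and -0.061). After quantile normalization the list had 2 higher and 0 lower (median -0.040), and Sall4 and Zfp42 were not called (0.14 and 0.027). Primitive endoderm markers had 1 lower of 8, Gata4. In these bulk samples fewer cells of a type and less RNA per cell cannot be told apart.

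After 20 pulses 0 of the 14 upstream regulators and 0 of the 6 later trophoblast genes were called by limma, and 102 of 13599 genes were higher and 45 lower. Of the 18 trophectoderm genes Mbnl3, an RNA-binding protein, rose by 0.57 (adjusted p = 0.00461). Elf2 among the relatives rose by 0.41, Prdm14 among the inner cell markers by 0.60, and Sox17, a primitive endoderm factor, by 1.00. These 4 were called under all 4 scalings.

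Markers of cells that could accompany an embryo also moved. Of 7 tested genes of oviduct and uterine epithelium 4 were lower in Ca-free medium (median -0.73), among them Ovgp1 (-0.78), Krt5 (-0.73) and Pgr (-0.84). After quantile normalization 3 were lower and under median scaling 2 (median -0.41 in both), where Krt5 was not called (-0.35). Summed over the 8 genes of the list the signal was 1429 to 1767 on controls, 1224 to 1505 after 20 pulses and 777 to 1067 in Ca-free medium. Of the cumulus cell list 1 gene of 7 was bright enough to test, Inhba, and it was lower (-1.31). The 6 genes of that list on the array summed to 474 to 783 on controls and 290 to 367 in Ca-free medium. Amh was under 100 on every array, and the tested oviduct genes had control means of 123 to 433. Foxj1, 1 of the 4 lower, and Ltf averaged 84.5 and 82.7 in Ca-free medium. They passed the filter through the other groups and support no count. Dim probe sets fell across the array, with medians of -0.39 to -0.37 among those as dim as Dlx3 1450475_at and Cdx2 1422074_at. The part of such cells in the changes of the members was not tested.

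Over the 12 arrays the brightest Eomes probe set was most like Cyp24a1 (Pearson r = 0.972), She (0.969), Pea15a (0.968) and Dtl (0.966). Among the members it was most like Klf5 1451739_at (r = 0.822) and the Gata2 probe sets (0.819 and 0.814), followed by Dlx3 (0.734 and 0.725). With the second Eomes probe set, 1426001_at, r was lower, at 0.689, and with Tfap2a 1421996_at it was 0.718. The r of the brightest Eomes probe set with the brightest Cdx2 probe set was -0.479. The brightest Cdx2 probe set was most like Ranbp2 (r = 0.963), Fam3c (0.958), Cbfb (0.949) and Syncrip (0.944), and its r with the second Cdx2 probe set was 0.856. These coefficients describe 12 arrays that share groups and array effects, and they carry no test.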

How the data were processed

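Per the labels, total RNA of mouse blastocysts was isolated by a Picopure kit and labelled as biotinylated cRNA by an Affymetrix small sample assay. The authors deposited linear intensity values per probe set, made with MAS5 per the submitters' processing notes (version not given), and every deposited array had the same 2% trimmed mean, 150.001. Each array was rescaled to a trimmed mean of 500, 32 was added and log2 was taken. The 27808 probe sets whose signal averaged 100 or more were tested. The 12 arrays entered a single model in limma 3.58.1 under R 4.3.3 (lmFit, eBayes with an intensity trend), with Benjamini-Hochberg adjustment over all probe sets tested and a threshold of 0.05. SE is the standard error with limma's moderated spread. The procedure was tested on simulated data.

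Gene names come from GEO's platform annotation, and promoters from a RefSeq table of GRCm38.p6. The members, lists and tests were chosen with earlier results of these data known. All member probe sets are named, and from each list at most the 3 called genes with the smallest adjusted p in a comparison, besides Tead4, Yap1, Krt8, Krt18, Gata1 and Pou5f1, which were added after their values were seen. Foxj1, Ltf and Amh, also outside this rule, are named for their low signal. The patterns most like Cdx2 and Eomes are the 4 genes with the highest Pearson correlation. Replicate numbers were not used as pairs.

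Alternatives were quantile, median and hybridization control scaling (9 probe sets), the values as deposited, an added value of 1 or 100, a minimum of 300 or none, array weights, no trend, only the 8 arrays of the pair of groups, a replicate block, a threshold of 0.01, each array left out, only 1 pair of controls (1 and 2, or 3 and 4), and only 1 pair of Ca-free arrays (1 and 4, or 2 and 3). Scalings of the listed genes were added after the data were seen. The number of arrays limits the precision.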

Additional observations from a re-analysis of the deposited data

Results flagged for a closer look

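In 5 of 66 groups of 4 arrays 1 array stood far from the others on the log2 scale used for the tests. The measure was the gap to its nearest neighbour relative to the range of the group (Dixon's 95% critical value). Chance alone gives about 1 such group in 20. In the 20 pulses group these were Gata2 1450333_a_at on array 3, at 641 with the others from 710 to 719, Tfap2c 1448977_at on array 4, at 962 with the others from 770 to 800, and Klf5 1451021_a_at on array 1, at 6223 with the others from 5993 to 6000. In the Ca-free group they were Elf5 1419556_at on array 2, at 33.5 with the others from 75.7 to 85.7, and Hand1 1448750_at on array 4, at 317 with the others from 291 to 293.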

How the results depend on the processing

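Between Ca-free medium and control 9 member probe sets were called, against 5 at an adjusted p under 0.01 and 6 to 10 with 1 array left out. For 20 pulses against control the count was 0, and it was 4 with hybridization control scaling, 1 with array weights, 1 with only the 8 arrays compared, 2 with only controls 3 and 4, and 0 to 0 with 1 array left out. Between Ca-free medium and 20 pulses it was 12, against 7 after quantile normalization, 6 at an adjusted p under 0.01, 7 with only Ca-free arrays 1 and 4, and 9 to 12 with 1 array left out. The replicate block gave 9, 0 and 13 calls; same-numbered arrays had a mean residual correlation of 0.0156, against -0.0052 for other numbers, and the lowest was -0.058, while residuals of 7 of the 12 arrays were closest to a same-numbered array, which is a hint from the data and not from the design. The other counts stayed within 1.5 times the main count. Single log2 changes reversed as follows, none of them a called member except Klf5 1451739_at, Gata3 1448886_at and Tfap2c 1436392_s_at; the cause was not tested. For Ca-free medium against control they were, after quantile normalization, Elf5 1419555_at 0.25, Tfap2a 1421995_at 0.13, Tfap2a 1426048_s_at -0.026 and Tfap2c 1436392_s_at -0.071. Under median scaling they were Elf5 1419555_at 0.25, Tfap2a 1421995_at 0.17, Eomes 1426001_at 0.21, Tfap2c 1448977_at 0.26, Klf5 1451021_a_at 0.33 and Klf5 1451739_at 0.081. With hybridization control scaling they were Tfap2a 1426048_s_at -0.20, Klf5 1430255_at -0.14, Tfap2c 1436392_s_at -0.15, Hand1 1448750_at -0.079, Gata3 1448886_at -0.029 and, from the lists, the called Zfp42 -0.061 and Pou5f1 -0.0043. With controls 1 and 2 only they were Elf5 1419555_at 0.046 and Cdx2 1422074_at -0.12, and with controls 3 and 4 only Tfap2a 1426048_s_at -0.031, Klf5 1430255_at -0.22 and Tfap2c 1448977_at 0.12. With Ca-free arrays 1 and 4 only they were Elf5 1419555_at 0.35, Eomes 1426001_at 0.0042, Klf5 1430255_at -0.11 and Tfap2c 1436392_s_at -0.021, and with Ca-free arrays 2 and 3 only Tfap2a 1426048_s_at -0.33 and Tfap2c 1448977_at 0.028. Leaving out 1 array gave -0.24 to 0.085 for Elf5 1419555_at, -0.12 to 0.13 for Tfap2a 1426048_s_at and -0.14 to 0.20 for Klf5 1430255_at. For 20 pulses against control, reversals with hybridization control scaling were Hand1 1417525_at 0.072, Eomes 1435172_at 0.087, Tfap2c 1436392_s_at 0.011, Gata3 1448886_at 0.047, Tfap2c 1448977_at 0.078, Gata2 1450333_a_at 0.15 and Klf5 1451021_a_at 0.031. With controls 3 and 4 only they were Hand1 1417525_at 0.13, Klf5 1430255_at -0.082, Hand1 1448750_at -0.046, Tfap2c 1448977_at 0.18 and Gata2 1450333_a_at 0.11. With controls 1 and 2 only they were Tfap2c 1418147_at -0.065, Cdx2 1422074_at -0.15, Eomes 1426001_at -0.029, Gata2 1428816_a_at -0.13 and Gata3 1448886_at 0.0038. Quantile normalization reversed Tfap2c 1418147_at (-0.018), and median scaling Gata2 1450333_a_at (0.028). Leaving out 1 array gave -0.19 to 0.066 for Hand1 1417525_at, -0.047 to 0.14 for Hand1 1448750_at, -0.088 to 0.061 for Tfap2c 1418147_at, -0.22 to 0.0081 for Tfap2c 1448977_at, -0.024 to 0.20 for Gata2 1428816_a_at, -0.059 to 0.079 for Gata2 1450333_a_at and -0.16 to 0.0050 for Eomes 1435172_at. For Ca-free medium against 20 pulses, reversals with hybridization control scaling were Tfap2c 1418147_at -0.068, Cdx2 1422074_at -0.30, Cdx2 1422075_at -0.31, Tfap2c 1436392_s_at -0.16, Hand1 1448750_at -0.27, Gata3 1448886_at -0.076 and Klf5 1451021_a_at -0.32. After quantile normalization they were Cdx2 1422075_at -0.10, Klf5 1430255_at 0.16 and Klf5 1451021_a_at -0.14, and under median scaling Eomes 1426001_at 0.065, Klf5 1430255_at 0.17 and Tfap2c 1448977_at 0.30. Ca-free arrays 1 and 4 only gave Cdx2 1422074_at -0.11 and Cdx2 1422075_at -0.021, and Ca-free arrays 2 and 3 only gave Tfap2c 1448977_at 0.11. Leaving out 1 array gave -0.027 to 0.12 for Cdx2 1422074_at, -0.0023 to 0.098 for Cdx2 1422075_at, -0.032 to 0.13 for Hand1 1448750_at and -0.12 to 0.022 for Tfap2c 1448977_at.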
